A study of Mus musculus with 29 samples.

Results

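The 10 genes followed here, which microglia and macrophages switch on in the disease-associated state, were measured across a mouse stroke series: the receptors and adaptor Trem2, Tyrobp, Clec7a, Lilr4b, Cd300lb and Axl, and the secreted or lysosomal genes Cst7, Spp1, Gpnmb and Lgals3. They are 10 of the 25746 genes in the deposited counts, matched by Ensembl identifier, and all 10 were among the 17031 genes that passed the filter on low counts. The genes were selected on measured values, with their change after stroke in these samples known, so stroked against non-stroked values are given as a description, and calls counted there are no test of these genes. Comparisons among stroked groups and among non-stroked groups were tested, although they share samples with the contrasts that guided the choice.

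The series holds 29 cortical RNA samples from mice aged 3 months, of both sexes. A photothrombotic stroke, in which light and a dye close the cortical vessels, was set in the right sensorimotor cortex, and stroked tissue was taken at day 21. Stroked groups were WT (C57BL/6J, n = 4), WT-Tacr acute (label WT_IM; tacrolimus by osmotic pump from day 0, n = 3), WT-Tacr delayed (label WT_IM_del; tacrolimus from day 7, n = 5), Rag2-/- (label RAG; no mature T and B cells, n = 3) and NSG (NOD background with altered Prkdc and Il2rg; no T, B or NK cells, n = 3). Non-stroked groups were WT (n = 4), Rag2-/- (n = 3) and NSG (n = 4). Tacrolimus blocks calcineurin and with it T cell activation. The non-stroked WT samples carried no drug and served all WT groups, so a drug effect apart from the stroke was not measured and cannot be told apart in the folds of the drug groups. The study's methods describe control tissue from the side opposite the lesion and its results speak of naive animals, hence the neutral name non-stroked.

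TREM2 is a surface receptor for lipids and apolipoproteins. It signals through TYROBP (DAP12), a membrane adaptor with an activation motif that recruits the kinase SYK. Microglia near plaques, degenerating myelin or infarcts lower homeostatic genes and raise a lysosomal, lipid-handling and phagocytic programme, and the later step of this change is known to need TREM2. Clec7a, Axl, Cst7, Spp1, Gpnmb and Lgals3 are commonly used to mark that state, and most of them are also expressed by infiltrating macrophages. In bulk tissue, more cells of a type and more RNA per cell cannot be told apart, and neither can microglia and macrophages.

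Total counts ran from 32507506 to 43403413 in the 20 samples whose title starts with Imm2 and from 17789044 to 29928311 in the 9 that start with TF. These title prefixes are called cohorts here. All non-stroked, Rag2-/- and NSG samples were Imm2 and all WT-Tacr delayed samples TF, whereas stroked WT (replicates 1 and 2 Imm2, 3 and 4 TF) and WT-Tacr acute (replicate 1 Imm2, 2 and 3 TF) held both. No count tables were identical. Rag2 had at most 2 counts in any sample, which leaves the Rag2-/- label unchecked. Il2rg was at 0.632 to 1.04 CPM (counts scaled by library size) in non-stroked NSG and 0.769 to 0.975 in stroked NSG cortex, against 0.668 to 0.836 and 2.02 to 3.61 in WT. Homeostatic microglia genes (10 genes, P2ry12 and Tmem119 among them) summed to 284 to 764 CPM and neuronal markers to 4300 to 7860 CPM, so markers of both kinds of cell were detected in every sample. Acute replicates 1 and 2 stood apart from the other stroked samples. They are also the 2 samples whose deposited count table carries another animal number than the sample title, the cohort and, for replicate 2, the word acute being the same in both. Which animal those counts come from could not be checked, and counts of the 10 genes that rest on the acute group are given with and without its samples.

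In GENCODE M21 (GRCm38) the receptors and adaptor lie at chr17:48346401-48354147 (Trem2, plus strand), chr7:30413760-30417585 (Tyrobp, plus), chr6:129461591-129472779 (Clec7a, minus), chr10:51480632-51486703 (Lilr4b, plus), chr11:114922781-114934386 (Cd300lb, minus) and chr7:25757273-25788705 (Axl, minus). The secreted and lysosomal genes lie at chr2:150570415-150578944 (Cst7, plus), chr5:104435118-104441050 (Spp1, plus), chr6:49036546-49070929 (Gpnmb, plus) and chr14:47367751-47386160 (Lgals3, plus). Since the genes rose and fell together across stroked samples, their promoters (250 bases before to 50 after the RefSeq start, build GRCm38.p6) were searched on both strands for GGAAGT (the ETS core that PU.1 binds), CACGTG and CATGTG (E-boxes of the MiT/TFE lysosomal factors), TGANTCA (AP-1) and TTCNNNGAA (STAT). RefSeq windows were found for 9 of the 10 genes, 11 windows in all. TGANTCA was in 3 of the 11, in Trem2, Cst7 and Gpnmb, and in 7.81% of all 32851 promoters. GGAAGT was in 3 (Cst7, Spp1, Cd300lb; 23.8% of all), TTCNNNGAA in 1 (Lilr4b; 8.3%), and CACGTG (7.15%) and CATGTG (14.2%) in 0. The matches did not overlap each other and are a description of letters, not of binding. The windows that hold TGANTCA are shown because a receptor, a secreted inhibitor and a lysosomal glycoprotein share the match close to the start, with matches in capitals (TGANTCA in each, and GGAAGT further upstream in Cst7).
Trem2, chr17:48346151-48346450, plus strand: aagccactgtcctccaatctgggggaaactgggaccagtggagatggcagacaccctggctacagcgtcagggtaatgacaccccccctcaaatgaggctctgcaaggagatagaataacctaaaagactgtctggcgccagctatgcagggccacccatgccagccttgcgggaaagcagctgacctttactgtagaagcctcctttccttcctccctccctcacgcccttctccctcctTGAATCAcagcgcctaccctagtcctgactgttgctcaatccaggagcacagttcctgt
Cst7, chr2:150570165-150570464, plus strand: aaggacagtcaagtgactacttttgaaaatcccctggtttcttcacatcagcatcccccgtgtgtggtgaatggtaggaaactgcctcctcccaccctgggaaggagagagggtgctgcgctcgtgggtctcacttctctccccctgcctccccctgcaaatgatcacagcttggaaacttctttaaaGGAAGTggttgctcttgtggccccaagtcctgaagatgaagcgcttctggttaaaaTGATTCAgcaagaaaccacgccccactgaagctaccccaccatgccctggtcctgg
Gpnmb, chr6:49036268-49036567, plus strand: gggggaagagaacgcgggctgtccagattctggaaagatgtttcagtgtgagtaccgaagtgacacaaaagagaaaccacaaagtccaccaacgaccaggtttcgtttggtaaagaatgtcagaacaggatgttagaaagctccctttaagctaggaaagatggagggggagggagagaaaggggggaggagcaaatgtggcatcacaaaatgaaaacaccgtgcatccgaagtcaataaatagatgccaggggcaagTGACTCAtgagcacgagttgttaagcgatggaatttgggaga

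In cortex without a stroke, the 10 genes fell into an expressed and a nearly silent set. Per kilobase of exon, mean levels in WT were 9.98 CPM for Axl, 9.12 for Tyrobp, 3.42 for Spp1 and 1.77 for Trem2, with Gpnmb next. Lgals3 (0.191), Cst7 (0.161), Clec7a (0.0622), Lilr4b (0.0101) and Cd300lb (0, no count in any of the 4 samples) were below these. In stroked WT the order per kilobase was Spp1 (100), Tyrobp (62), Gpnmb (26.1), Axl and Lgals3 (16.9 each), Cst7 (9.32), Trem2 (9.07), Clec7a (8.18), Lilr4b (1.07) and Cd300lb (0.743). Axl thus went from the highest of the 10 to the middle, and Spp1 to the top. Lengths are the union of annotated exons, which understates genes with long, rarely used exons.

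**Figure D1:**
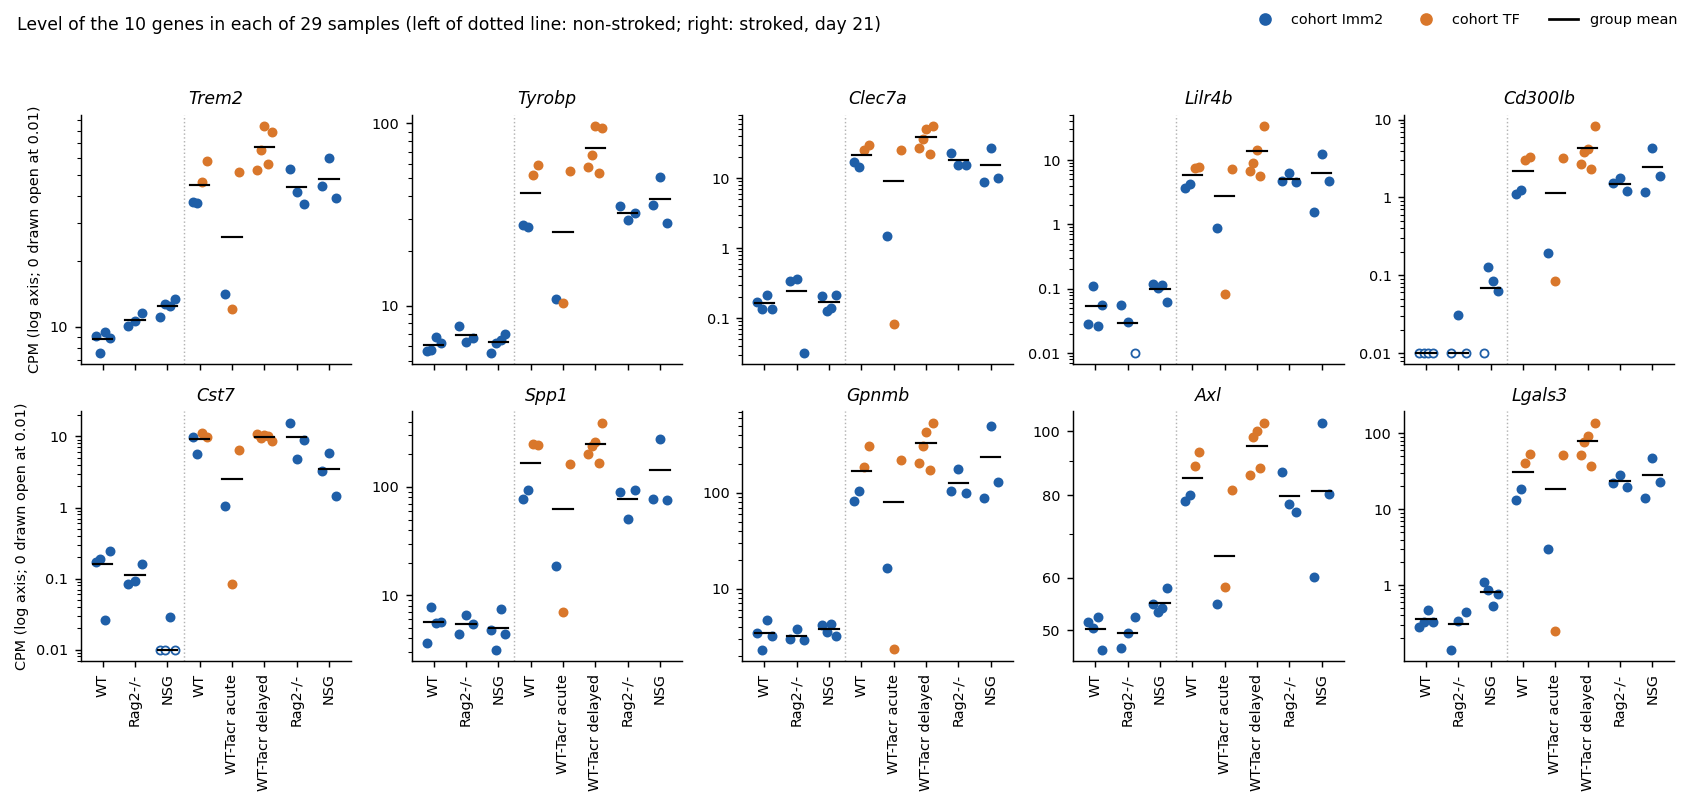
Level of each gene in CPM on a log axis in every sample, by group, with the group mean as a bar and cohort as colour (values below 0.01 CPM are drawn at 0.01, open where the count is 0). Acute replicates 1 and 2 lie below every stroked WT and every delayed sample for all 10 genes, and replicate 3 lies within the stroked WT range for all 10. These counts were not made over all genes.

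Trem2 was detected in every sample and was several-fold higher in most stroked cortex. It was at 9.08, 7.56, 9.44 and 8.85 CPM in non-stroked WT and at 37.7, 37.1, 46.5 and 58.1 CPM in stroked WT (replicates in order). Under acute tacrolimus it was at 14.2, 12 and 51.5 CPM and under delayed tacrolimus at 52.7, 64.9, 84, 56.2 and 79.2 CPM. Acute replicates 1 and 2 were thus near the non-stroked level, and every delayed value was above replicate 3. Stroked Rag2-/- (53.4, 41.8 and 36.6 CPM) and stroked NSG (44.4, 59.7 and 39.1 CPM) overlapped stroked WT. Mean folds of stroked over non-stroked CPM were 5.14 in WT, 2.96 in acute, 7.72 in delayed, 4.09 in Rag2-/- and 3.84 in NSG mice. Here, as for every gene below except Axl, the acute fold rests largely on replicate 3.

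Tyrobp, the adaptor of TREM2 and of several related receptors, was also detected in every sample. Non-stroked WT samples were at 5.61, 5.69, 6.76 and 6.27 CPM and stroked WT samples at 27.8, 26.9, 52 and 58.8 CPM. The 2 TF samples of stroked WT were therefore 2.03-fold above the Imm2 samples in the mean. Acute samples were at 10.9, 10.4 and 54.7 and delayed samples at 57.6, 66.8, 96.6, 53.3 and 93.9 CPM, delayed replicate 4 falling just below acute replicate 3. Stroked Rag2-/- (35.3, 29.5 and 32.3 CPM) and NSG samples (35.9, 51 and 28.5 CPM) lay above both Imm2 samples of stroked WT and below both TF samples. Folds over non-stroked samples were 6.81 (WT), 4.17 (acute), 12.1 (delayed), 4.68 (Rag2-/-) and 6.09 (NSG).

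Clec7a, the beta-glucan receptor Dectin-1, was nearly absent without a stroke. The 11 non-stroked samples had 1 to 12 counts each. Stroked WT samples were at 16.9, 14.3, 25.2 and 29.9 CPM, acute samples at 1.48, 0.0832 and 25.6 CPM and delayed samples at 26.9, 36.6, 50.5, 22 and 55.6 CPM. Acute replicate 2, with 2 counts, was below every non-stroked WT sample. Stroked Rag2-/- was at 23.1, 15.5 and 15.3 CPM and stroked NSG at 8.98, 27.3 and 10.1 CPM. Folds were 132 (WT), 55.1 (acute), 234 (delayed), 73.4 (Rag2-/-) and 89.6 (NSG), each resting on few counts in the non-stroked mice.

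Lilr4b, a leukocyte immunoglobulin-like receptor (gp49), had 0 to 4 counts in each non-stroked sample. It reached 3.74, 4.25, 7.43 and 7.88 CPM in stroked WT, 0.876, 0.0832 and 7.34 CPM under acute and 6.8, 9.1, 14.1, 5.61 and 33.6 CPM under delayed tacrolimus. Delayed replicate 5 was the highest of all 29 samples. Its near-identical neighbour Lilrb4a (chr10:51490956-51496611, plus strand) shares 24.1% of the 50-base windows of the Lilr4b transcripts, so reads may have been split between the pair. Lilrb4a went the same way, at a mean of 0.123 CPM in non-stroked WT, 12.3 in stroked WT, 5.2 in acute and 23.5 in delayed mice. In Rag2-/- mice, where non-stroked samples had at most 2 counts, Lilr4b was at least 56.7-fold higher after stroke (against a floor of 3 counts per library), and in NSG mice it was 63.1-fold higher. Stroked NSG samples were at 1.54, 12.3 and 4.8 CPM, so the NSG fold rests largely on replicate 2.

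Cd300lb, another receptor that pairs with TYROBP, was scarce throughout. It had 0 counts in every non-stroked WT sample, at most 1 in Rag2-/- and 0 to 5 in NSG samples. After stroke it was at 1.11, 1.25, 3.04 and 3.27 CPM in WT, 1.52, 1.75 and 1.2 CPM in Rag2-/- and 1.19, 4.35 and 1.9 CPM in NSG mice. Acute samples were at 0.195, 0.0832 and 3.17 CPM, replicates 1 and 2 resting on 8 and 2 counts, and delayed samples ran from 2.31 to 8.23 CPM. Against the floor of 3 counts per library the rise of the group mean was at least 26.4-fold in WT, 14-fold in acute, 51.8-fold in delayed and 16.4-fold in Rag2-/- mice. The acute value rests largely on replicate 3, since replicate 2 was under the floor of its own library (0.125 CPM).

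Axl, a receptor tyrosine kinase of the TAM family that binds phosphatidylserine through GAS6, changed least. It was at 46.7 to 57.9 CPM across the 11 non-stroked samples. Stroked WT samples were at 78.3, 80, 88.7 and 93.1 CPM, acute samples at 54.8, 58 and 81.5 CPM and delayed samples at 85.7, 98.1, 100, 88 and 103 CPM. Stroked samples of WT, delayed, Rag2-/- and NSG groups nevertheless all exceeded the non-stroked samples of their strain. Mean folds were 1.69, 1.29, 1.89, 1.61 and 1.48 in WT, acute, delayed, Rag2-/- and NSG mice.

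Cst7, which encodes cystatin F, an inhibitor of lysosomal cathepsins, differed from the other secreted genes in its spread. In non-stroked samples it had 1 to 9 counts in WT, 3 to 5 in Rag2-/- and 0, 0, 1 and 0 in NSG mice. Stroked WT samples were at 9.8, 5.67, 11.3 and 9.96 CPM and delayed samples at 10.9, 9.51, 10.4, 10.2 and 8.73 CPM, a narrow range in which delayed replicate 5, the highest delayed sample for 7 of the other 9 genes, was lowest. Acute samples were at 1.05, 0.0832 and 6.41 CPM, Rag2-/- at 15.6, 4.79 and 8.79 CPM and NSG at 3.26, 5.76 and 1.47 CPM. The rise was 57.9-fold in WT, 15.8-fold in acute, 62.7-fold in delayed, 87.1-fold in Rag2-/- and at least 40.9-fold in NSG mice.

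Spp1, the secreted phosphoprotein osteopontin, and Gpnmb, a lysosomal and cell-surface glycoprotein, were both expressed without a stroke and rose further after it in most samples. Spp1 went from 3.64, 7.78, 5.52 and 5.63 CPM in non-stroked WT to 78, 93.1, 247 and 244 CPM in stroked WT. It was at 18.8, 7.03 and 164 CPM in acute and 200, 239, 261, 167 and 392 CPM in delayed mice. Gpnmb went from 3.45, 2.31, 4.69 and 3.24 to 82.5, 105, 188 and 305 CPM, with acute samples at 16.6, 2.37 and 219 CPM and delayed samples at 204, 306, 432, 173 and 538 CPM. Acute replicate 2 was within the non-stroked WT range for both genes. Stroked NSG replicate 2 (278 CPM for Spp1, 498 CPM for Gpnmb) was above the other NSG replicates for all 10 genes, a count not made over all genes. In that sample the fibroblast markers summed to 1330 CPM, against 223 and 359 CPM in the others, and the monocyte markers to 247 CPM, against 57.9 and 111 CPM; their part was not tested. Folds in the order WT, acute, delayed, Rag2-/- and NSG were 29.3, 11.2, 44.6, 14.2 and 29.1 for Spp1 and 49.7, 23.2, 96.5, 39.2 and 62.8 for Gpnmb. The NSG folds rest largely on replicate 2, since replicates 1 and 3 were at 78.1 and 75.6 CPM for Spp1 and 87.6 and 130 CPM for Gpnmb.

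Lgals3, galectin-3, a lectin of damaged lysosomes and the cell surface, had 5 to 38 counts in non-stroked samples. Stroked WT samples were at 13.1, 18.6, 40.1 and 53.4 CPM, acute samples at 2.99, 0.25 and 52.1 CPM and delayed samples at 52.6, 77.3, 92.2, 37.2 and 138 CPM. Stroked Rag2-/- (22, 28.5 and 19.6 CPM) and NSG samples (14.2, 47.9 and 23.1 CPM) lay within the range of stroked WT, and the Rag2-/- samples were all above its Imm2 samples. Folds were 88.3 (WT), 52 (acute), 224 (delayed), 76.1 (Rag2-/-) and 34.6 (NSG), the last lower on a non-stroked level of 0.822 CPM in NSG against 0.355 CPM in WT mice.

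A gene was called when edgeR's quasi-likelihood adjusted p was below 0.05 and its absolute log2 fold change above 1. By that rule 9 of the 10 genes were called higher in each of the 5 stroke comparisons, Axl missing the fold threshold each time (log2 fold change 0.37 to 0.92). Of all genes tested, 6.76% were called higher in WT, 2.28% in acute, 11.5% in delayed, 4.22% in Rag2-/- and 5.01% in NSG mice; nothing is read from this, because the genes were chosen on these contrasts. Their median log2 fold change was 5.73, 4.24, 6.27, 5.72 and 5.09 in that order, or 5.25, 3.87, 5.82, 4.66 and 5.09 with genes at the count floor set to their bound, beside a median of 0 to 0.03 over all genes. For all 10 genes every stroked sample lay above every non-stroked sample of its strain in WT, delayed, Rag2-/- and NSG mice, as for 16.3%, 26.5%, 18.8% and 13.6% of all genes tested. Under acute tacrolimus this held for 4 (Trem2, Tyrobp, Cd300lb and Axl) and for 10.4% of all genes. For Cd300lb it rests on 2 counts in acute replicate 2, under the floor of 3 counts, against 0 in the non-stroked WT samples. The acute count of 9 fell to 0 without acute replicate 3, to 0 when no other group entered the model, and to 0 with cohort as a covariate. Calls over all genes fell as well, from 440 of 17031 to 23 of 17262, 21 of 15879 and 31 of 17031 in that order.

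**Figure D2:**
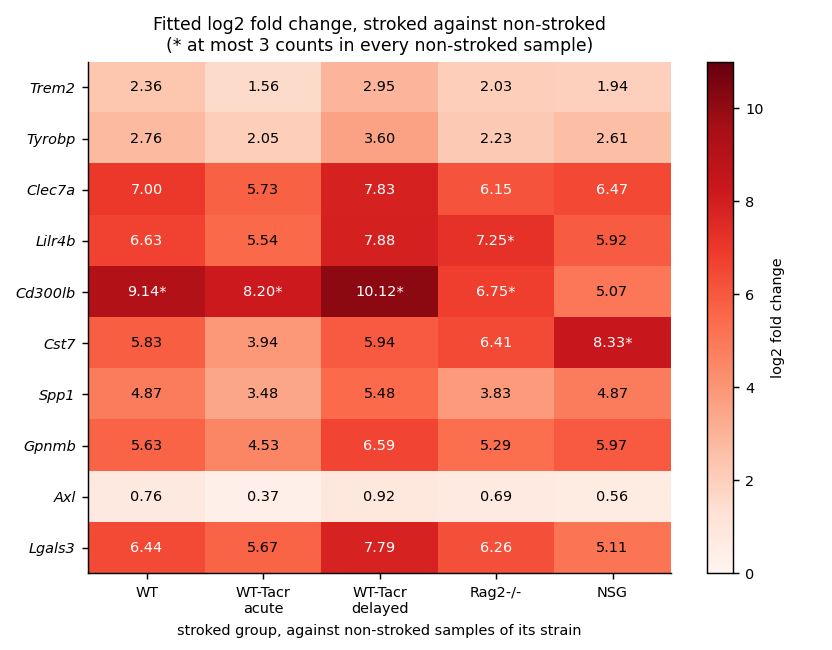
Fitted log2 fold change of stroked over non-stroked samples for each gene (rows) and group (columns), with colour on the same scale; an asterisk marks fitted values that are no bound because every non-stroked sample had at most 3 counts. All 10 values of the acute column are below those of WT and delayed mice, and Axl stays below 1 in every column.

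The first comparison among stroked groups asked whether the genes differ with the start of tacrolimus. With all samples, 7 of the 10 were called higher in delayed than in acute mice, against 5.75% of all genes tested (979 genes, either direction). The 7 are Trem2 (log2 fold change 1.39, SE 0.304, edgeR adjusted p = 0.0102), Tyrobp (1.54, SE 0.383, adjusted p = 0.012), Clec7a (2.1, SE 0.698, adjusted p = 0.0358), Lilr4b (2.34, SE 0.732, adjusted p = 0.0276), Cst7 (2, SE 0.594, adjusted p = 0.022), Spp1 (1.99, SE 0.653, adjusted p = 0.0336) and Lgals3 (2.12, SE 0.75, adjusted p = 0.0464). Axl passed on p (edgeR adjusted p = 0.0103) with a log2 fold change of 0.55, below the fold threshold. Cd300lb (1.92, SE 0.719, edgeR adjusted p = 0.0604) and Gpnmb (2.06, SE 0.778, edgeR adjusted p = 0.0602) were not called. The median over the 10 was 2, beside -0.02 over all genes. All 5 delayed samples were above all 3 acute samples for Trem2, Cst7, Spp1 and Axl, as for 8.81% of all genes, and the groups overlapped for the other 6 genes through acute replicate 3.

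This count rested on single samples of a small group. Acute replicates 1 and 2 were below every delayed sample for all 10 genes, and replicate 3 for 4 of them. The share of all genes was not counted for these single samples, so this is a description. The count fell to 0 without acute replicate 1 and to 0 without acute replicate 2, and rose to 9 without acute replicate 3. Calls over all genes moved the same way, to 0, 0 and 1927 in that order. It was 4 without delayed replicate 3 (769 of 17018 genes) and 3 without delayed replicate 5 (432 of 17000 genes), against 979 of 17031 with all samples. Within the TF cohort (5 delayed, 2 acute samples) the log2 fold changes kept their sign, from 0.47 (Axl) to 1.9 (Lilr4b), and 0 of the 10 were called (edgeR adjusted p from 0.213 to 0.421), as were 0 of all genes. With cohort as a covariate 2 were called, Trem2 (1.21, edgeR adjusted p = 0.0312) and Tyrobp (1.28, edgeR adjusted p = 0.0312), with 423 of 17031 genes. A model of these 8 samples alone called 0 as well.

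**Figure D3:**
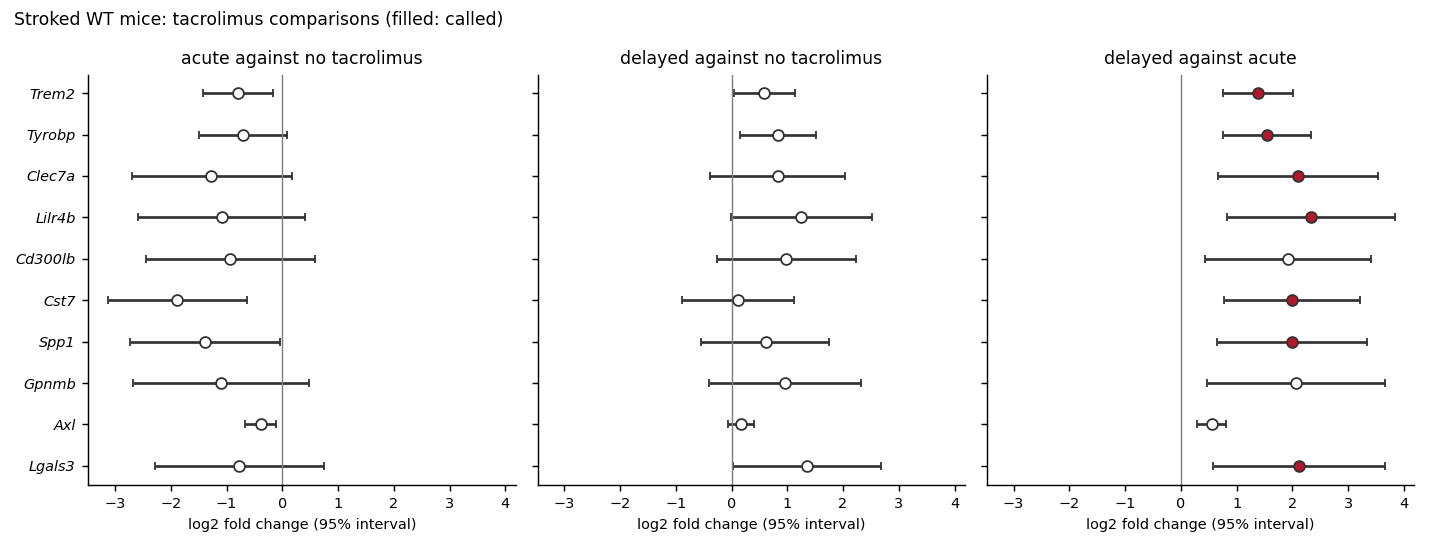
Log2 fold change with its 95% interval for each gene in the 3 tacrolimus comparisons of stroked WT mice; filled points were called. All 10 points are below 0 for acute against no tacrolimus, above 0 for delayed against no tacrolimus, and 7 are filled for delayed against acute.

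Acute tacrolimus against no drug gave 0 calls among the 10 and 0% of all genes (edgeR, 2168 genes at an unadjusted p below 0.05, smallest adjusted p 0.311; DESeq2 called 2 genes, none of the 10). Of the 10 genes, 4 were at an unadjusted p below 0.05 (Trem2, Cst7, Spp1 and Axl). All 10 log2 fold changes were negative, from -0.39 (Axl, 95% interval -0.66 to -0.12) to -1.88 (Cst7, -3.13 to -0.64), and Trem2 was at -0.8 (-1.43 to -0.16). The groups overlapped for every gene. Without acute replicate 3, 9 genes were called lower, all but Axl, with Clec7a at -4.57 (edgeR adjusted p = 0.000129), Lgals3 at -4.1 (edgeR adjusted p = 0.000863) and Trem2 at -1.76 (edgeR adjusted p = 7.9e-05), and 689 of 17262 genes were called. The remaining acute samples are 1 from each cohort.

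**Figure D4:**
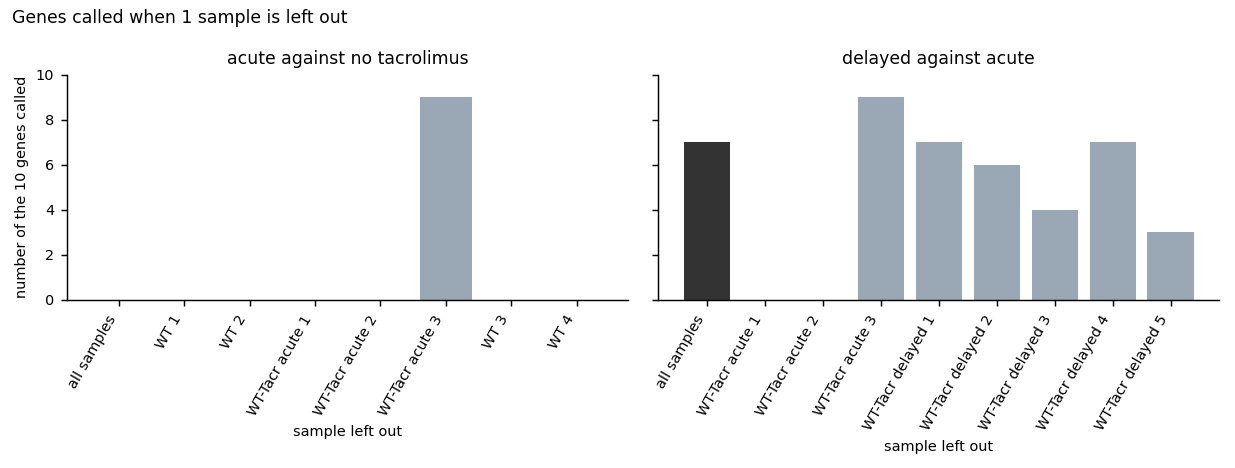
Number of the 10 genes called (bar height) with all samples and with each sample of the compared groups left out in turn. Leaving out acute replicate 3 takes acute against no tacrolimus from 0 to 9, and leaving out acute replicate 1 or 2 takes delayed against acute from 7 to 0. Calls over all genes moved in the same direction each time.

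Delayed tacrolimus against no drug also gave 0 calls among the 10 and 0% of all genes (edgeR, 3455 genes at an unadjusted p below 0.05, smallest adjusted p 0.15; DESeq2 called 25 genes, none of the 10). Of the 10 genes, 3 were at an unadjusted p below 0.05 (Trem2, Tyrobp and Lgals3). All 10 log2 fold changes were positive. The largest were Lgals3 at 1.35 (95% interval 0.02 to 2.68, edgeR adjusted p = 0.242) and Lilr4b at 1.25 (-0.01 to 2.51, edgeR adjusted p = 0.251), and the smallest was Cst7 at 0.12 (-0.89 to 1.12). In stroked WT both TF samples lay above both Imm2 samples for all 10 genes, by 1.15-fold (Axl) to 2.95-fold (Lgals3) in the mean. The share of all genes that did so was not computed, so nothing particular to the 10 genes is read from it. The delayed samples are all TF. Within TF, Cst7 was at -0.09, and with cohort as a covariate Cst7 (-0.3) and Spp1 (-0.09) turned negative.

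Markers of other cells moved between the acute and delayed samples too, and their part in these results was not tested. Fibroblast markers (Col1a1, Col1a2, Dcn, Lum, Pdgfra, Col3a1) summed to 116, 84.8 and 429 CPM in acute and 397 to 1600 CPM in delayed samples, and 5 of the 6 were called higher in delayed mice. Monocyte markers summed to 68.3 to 131 against 145 to 380 CPM (4 of 6 called, Plac8 and Ly6c2 among them), although fibronectin (Fn1), which other cells express too, makes up most of that sum. Border-associated macrophage markers summed to 10.9 to 20.7 against 25.5 to 62.7 CPM (4 of 6 called). Neuronal markers went the other way, at 7800, 7190 and 5490 against 4300 to 5250 CPM, with 0 of 6 called. Of these, 5 were lower and 1 higher in delayed mice (median log2 fold change -0.55), with 4 at an unadjusted edgeR p below 0.05. Astrocyte markers summed to 2130, 2050 and 2920 against 2900 to 3340 CPM, with 1 of 6 called (Gfap, 1.33). Homeostatic microglia genes summed to 338, 367 and 613 against 629 to 764 CPM, with 0 of 10 called. All 10 were nevertheless higher in delayed mice (median log2 fold change 0.55), with 9 at an unadjusted edgeR p below 0.05. The gene with the smallest edgeR adjusted p (0.0102) missed the call on the fold threshold. Choroid plexus markers were at 3.29 to 21.7 against 16.1 to 836 CPM (2 of 6 called). T cell markers overlapped, mostly as Cd4 (6.53 to 30.8 against 16.3 to 32 CPM, 0 of 5 tested called) and so did those of neutrophils (0.624 to 4.33 against 2.9 to 8.33 CPM, 0 of 3 tested called), whose defining gene Ly6g was at 0 in every delayed sample.

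**Figure D5:**
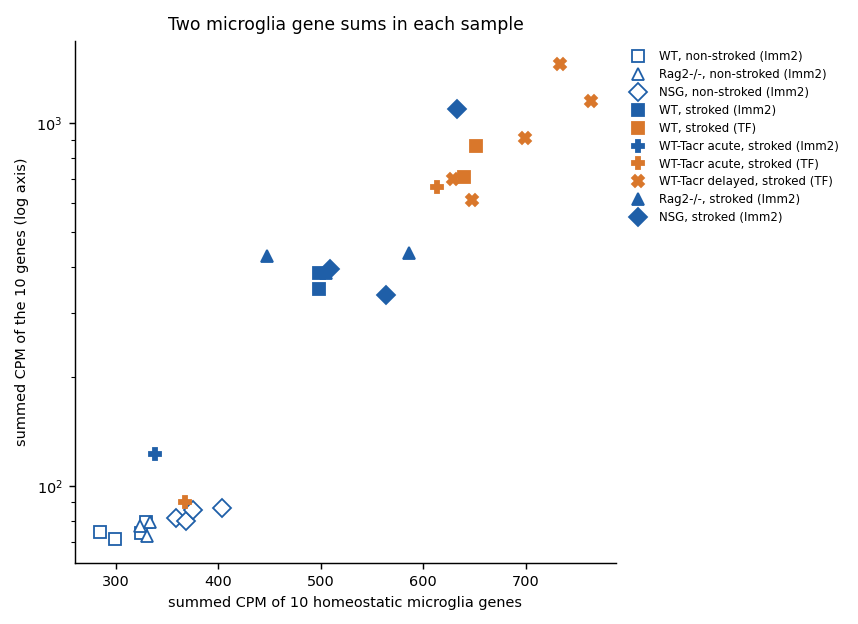
Summed CPM of the 10 genes (log axis) against summed CPM of 10 homeostatic microglia genes in each sample; open symbols are non-stroked, filled symbols stroked, and colour is the cohort. The non-stroked samples cluster at the lower left with acute replicates 1 and 2, and the homeostatic sum spans a far smaller range than the sum of the 10 genes.

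Relative to the homeostatic genes the 10 genes still differed between samples. The ratio of the summed CPM was 0.216 to 0.262 in the 11 non-stroked samples. It was 0.701, 0.777, 1.11 and 1.32 in stroked WT, 0.361, 0.246 and 1.09 in acute, and 0.948 to 1.98 in delayed samples. Stroked Rag2-/- samples were at 0.746, 0.964 and 0.767 and stroked NSG samples at 0.595, 1.72 and 0.776. Acute replicate 2 thus lay within the non-stroked range and replicate 1 above it. For Tyrobp alone the ratio of acute replicate 2 was 0.0283, above the non-stroked 0.0153 to 0.0235. For Trem2 alone its ratio was 0.0326, within the non-stroked 0.0266 to 0.0346.

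The next comparisons asked whether mice without lymphocytes differ from WT. Among stroked mice, 0 of the 10 genes were called in Rag2-/- against WT (0.00587% of all genes, 1 gene), in NSG against WT (3.26%) and in NSG against Rag2-/- (2.75%), by edgeR or by DESeq2. At an unadjusted p below 0.05 there were 0, 1 and 1 of them, Cst7 each time. For Trem2 the difference from stroked WT was -0.03 (95% interval -0.64 to 0.59) in Rag2-/- and 0.09 (-0.52 to 0.71) in NSG mice, and for Axl -0.09 (-0.36 to 0.18) and -0.07 (-0.33 to 0.2). These fits mix the cohorts, since Rag2-/- and NSG samples are all Imm2 and stroked WT holds both. Against the Imm2 samples of stroked WT alone, Trem2 was at 0.23 (-0.12 to 0.58) in Rag2-/- and 0.35 (-0.13 to 0.84) in NSG mice. Signs changed within Imm2: in Rag2-/- mice 9 of the 10 differences were negative with all samples and 9 positive within Imm2, and in NSG mice 6 were negative with all samples and 2 within Imm2. Again 0 of the 10 were called within Imm2, beside 1 of 16332 genes in Rag2-/- and 107 of 16510 genes in NSG mice. The largest difference in Rag2-/- mice was Lgals3 at 0.56 (0.1 to 1.01, edgeR adjusted p = 0.999). In NSG mice the largest were Gpnmb at 1.35 (-0.24 to 2.93, edgeR adjusted p = 0.721), Cst7 at -1.14 (-2.32 to 0.05) and Cd300lb at 1.07 (-0.2 to 2.35). For the scarcer genes the intervals are wide, as for Clec7a in NSG mice (-0.48, interval -1.85 to 0.9, with all samples). T cell markers Cd3e, Cd3g and Cd8a were called lower in stroked NSG than in stroked WT cortex, while the 10 genes were not.

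With all samples, the largest differences between stroked strains were in Cst7 and Spp1. Spp1 was at -1.09 in Rag2-/- against WT (SE 0.645, unadjusted p = 0.104, edgeR adjusted p = 0.738), with overlapping groups, and at -0.14 (95% interval -0.67 to 0.39) within Imm2. Cst7 was lower in stroked NSG than in stroked WT (log2 fold change -1.38, SE 0.581, unadjusted p = 0.025, edgeR adjusted p = 0.116) and Rag2-/- cortex (-1.47, SE 0.608, unadjusted p = 0.0235, edgeR adjusted p = 0.134), and neither was called. Without NSG replicate 2 it was called in both, at -1.94 (edgeR adjusted p = 0.0489) and -2.03 (edgeR adjusted p = 0.0482). Within Imm2 the difference from WT was -1.14 (edgeR adjusted p = 0.642). The ranges overlap by NSG replicate 2 at 5.76 CPM, against 5.67 and 4.79 CPM as the lowest WT and Rag2-/- values.

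Among non-stroked mice, 0 of the 10 were called in Rag2-/- against WT (0.00587% of all genes, 1 gene), NSG against WT (3.36%) or NSG against Rag2-/- (2.8%) by edgeR, with 0, 1 and 0 at an unadjusted p below 0.05. Clec7a, Lilr4b, Cd300lb and Cst7 had 0 to 12 counts in these samples, so their values here rest on few counts. The absence of a call says little about these genes. Cst7 was the gene with an unadjusted p below 0.05, in NSG against WT (log2 fold change -3.89, SE 1.77, unadjusted p = 0.0371, edgeR adjusted p = 0.182). That fitted value rests on 1 count in 4 NSG samples and depends on the prior count, and DESeq2 called it (-4.2, DESeq2 adjusted p = 0.0129). Cd300lb, with 0 to 5 counts in NSG and 0 in WT samples, had a fitted difference of 4.28 (SE 2.34, unadjusted p = 0.0804, edgeR adjusted p = 0.291). Trem2 (0.51, 95% interval -0.09 to 1.11), Axl (0.13, -0.12 to 0.38) and Lgals3 (1.2, -1.3 to 3.7) were higher in every NSG than in every WT sample without being called, as 9.84% of all genes were higher in every NSG sample. Trem2 was also higher in every non-stroked Rag2-/- sample (10.1 to 11.5 CPM) than in every WT sample (7.56 to 9.44 CPM), as 4.02% of all genes were, and was not called there either (0.3, -0.35 to 0.95, edgeR adjusted p = 1). Lgals3 was called when the model held the non-stroked WT and NSG samples alone. Some marker sums also lay higher in every NSG than in every WT sample, and their part was not tested. They were those of homeostatic microglia genes (359 to 403 against 284 to 329 CPM), border-associated macrophages (8.13 to 11.3 against 4.73 to 7.7 CPM) and fibroblasts (104 to 188 against 83.6 to 95.8 CPM). The other marker sums overlapped. Of the related lists, 2 of 18 ligands and partners (Cd44, a receptor of osteopontin, 1.79, and the integrin Itga9, 1.08), 1 of 23 other disease-associated genes (Lpl, lipoprotein lipase, 1.47), 0 of 17 signalling genes and 0 of 14 receptors were called higher in non-stroked NSG than in WT cortex (edgeR adjusted p from 0.00264 to 0.00816), beside the 3.36% of all genes.

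The stroke response itself, tested as a difference of differences, was called for 0 of the 10 genes in Rag2-/- against WT (0% of all genes; 713 at an unadjusted p below 0.05, smallest edgeR adjusted p 0.95), NSG against WT (0.0117%, 2 genes) and NSG against Rag2-/- (0%; 1598 at an unadjusted p below 0.05, smallest edgeR adjusted p 0.108). DESeq2 called 0, 69 and 14 genes and 0 of the 10, and 0 of the 10 had an unadjusted p below 0.05 by edgeR. For Trem2 the response differed from that of WT by -0.33 (95% interval -1.22 to 0.57) in Rag2-/- and -0.42 (-1.28 to 0.44) in NSG mice. Within Imm2, the cohort of all Rag2-/-, NSG and non-stroked samples, it differed by -0.06 (-0.45 to 0.32) and -0.17 (-0.61 to 0.27). There 0 of the 10 were called, as were 0 of all 16671 and 0 of all 16895 genes tested. The intervals of the genes near 0 counts without a stroke span several log2 units, for example -9.11 to 0.98 for Cd300lb in NSG mice, so such differences were not detectable at this depth.

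Of 17 genes of the TREM2, TYROBP and CLEC7A pathways, 10 were called higher in stroked than in non-stroked WT cortex, and none lower (median log2 fold change 1.03, against 0 over all genes, of which 6.76% were called higher). The largest were Hcst, the adaptor DAP10 (2.35, SE 0.566, edgeR adjusted p = 0.00391), Lat2, a linker of immunoreceptor signalling (2.16, SE 0.317, edgeR adjusted p = 5.38e-05) and the kinase Btk (1.73, SE 0.303, edgeR adjusted p = 0.00023). Syk, named outside the rule as the kinase that TYROBP recruits, was at 0.83 (edgeR adjusted p = 0.0137), below the fold threshold. In delayed against acute mice 5 of the 17 were called higher, beside 5.75% of all genes in either direction, led by Lat2 (1.37), the phosphatase Ptpn6 (1.28) and Btk (1.14), with edgeR adjusted p from 0.0102 to 0.0142.

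Paired and related myeloid receptors were called higher in 10 of the 14 tested after stroke in WT mice (16 listed; 6.76% of all genes) and in 8 of 14 in delayed against acute mice (5.75%). After stroke Lilrb4a (6.59, SE 0.867), Cd300lf (6.45, SE 0.854) and Clec4d (5.8, SE 1.08) led, with edgeR adjusted p from 2.12e-05 to 0.000501. Between delayed and acute mice Cd300ld (2.37, SE 0.666), Clec4e (2.23, SE 0.753) and Lilrb4a (2.19, SE 0.644) led, with edgeR adjusted p from 0.0174 to 0.039. Mertk and Tyro3, the TAM kinases beside Axl, were not called in the delayed against acute comparison (0.08 and -0.15).

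Of 18 ligands, partner receptors, target enzymes and regulators of the members, 9 were called higher in stroked WT and 7 in delayed against acute mice, beside the same 6.76% and 5.75% of all genes. After stroke the largest were Tfec, a MiT/TFE factor (6.32, SE 1.15, edgeR adjusted p = 0.000468), Cd44 (2.83, SE 0.444, edgeR adjusted p = 8.69e-05) and Lgals3bp, which binds galectin-3 (1.92, SE 0.325, edgeR adjusted p = 0.000167). Between delayed and acute mice they were Cd44 (1.46), Ctsc, a cathepsin that cystatin F inhibits (1.41), and Lgals3bp (1.36), with edgeR adjusted p from 0.011 to 0.0239. Of 23 other disease-associated microglia genes, 14 were called higher in stroked WT (median 1.29), led by Itgax (6.21, SE 0.812), Ccl6 (3.4, SE 0.474) and Cd52 (3.36, SE 0.405), and 11 in delayed against acute mice, led by Itgax (2.44), Ccl6 (1.78) and Cd52 (1.67). Markers of other cells moved in stroked WT as well, and their part in these counts was not tested: 5 of 6 fibroblast (median 3.59), 5 of 6 monocyte (2.9), 5 of 6 border-associated macrophage (1.53) and 3 of 5 tested T cell markers (2.84) were called higher. So were 2 of 3 tested neutrophil markers (2.2). None of the 4 lists of related genes had a member called by edgeR in acute or delayed tacrolimus against no drug. Their median log2 fold changes there were -0.36 and 0.35 for signalling, -0.72 and 0.76 for receptors, -0.42 and 0.32 for ligands and -0.53 and 0.33 for the other disease-associated genes. The lists were written with results of these data known, and their calls between delayed and acute mice rest on the acute samples too: without acute replicate 1 or without acute replicate 2, edgeR called 0 of all genes, and without acute replicate 3 it called 1927.

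Across the 18 stroked samples the 10 genes varied together, as a description with no test, since the samples share libraries, depth and cohort. Pearson's r of log2 CPM over the 45 pairs ran from 0.725 (Cst7 and Axl) to 0.985 (Gpnmb and Lgals3), with a median of 0.933. Each gene's r with the mean of the other 9 was highest for Lgals3 (0.981) and lowest for Cst7 (0.848). Without acute replicates 1 and 2 (16 samples, a choice made after seeing the data) the pairs ran from 0.204 (Cst7 and Gpnmb) to 0.962 (Cd300lb and Lgals3), with a median of 0.855. Cst7 then had an r of 0.411 with the mean of the other 9, against 0.872 (Axl) to 0.964 (Clec7a) for the rest. Their spread within a group was largest in the acute group, with a median SD of 2.57 log2 CPM against 0.23 over all genes, and 0.9 against 0.29 in stroked NSG, 0.57 against 0.21 in stroked WT, 0.52 against 0.13 in delayed and 0.28 against 0.15 in stroked Rag2-/- mice.

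The genes outside the 10 most like their mean over the 18 stroked samples were Ly9 (Pearson's r 0.989), Cd84, Lilrb4a, C3ar1, Cxcr4, Hvcn1, Cybb, Rab7b, Gm49339 and Ms4a7 (0.98). Ly9 and Cd84 are receptors of the SLAM family on leukocytes, C3ar1 is the receptor of the complement fragment C3a, and Cybb and Hvcn1 encode the catalytic subunit of the phagocyte oxidase and a proton channel that accompanies it. All 10 remained in the list without acute replicate 3, and 9 with a prior count of 0.5. Without acute replicates 1 and 2, a choice made after seeing the data, 2 of the 10 remained (Ly9 and Ms4a7), and the list was led by Rnase4, Mpeg1 and Tlr13 (r 0.982 to 0.988), so most of the names rest on those samples. Over all 29 samples the list was led by Lyz2, Atp6v0d2 and Cybb and shared 2 genes with the first.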

How the data were processed

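RNA was sequenced from polyA-selected, stranded libraries of mouse cortex, and the authors deposited raw read counts per gene for each sample; the aligner, genome build and use of strand in counting are not given in the sources used here. Identifiers were joined to GENCODE M21 (GRCm38), which holds 25712 of the 25746 genes. Groups came from the sample labels, which do not say whether every sample is a separate mouse. The study lists fewer NSG mice for RNA sequencing than the NSG samples used here. Its tacrolimus and Rag2-/- numbers also differ from the labels. Stroked and non-stroked samples may therefore share mice, which the tests ignore, and p-values measure only the spread between these samples. In R 4.3.3, edgeR 4.0.16 fitted 1 quasi-likelihood model of 8 groups (TMM, filterByExpr, Benjamini-Hochberg over 17031 genes), as the study used edgeR. SE is the absolute log2 fold change over the square root of F. CPM uses TMM-scaled totals, except for the Il2rg values, which use unscaled totals. Intervals of 95% use the test's t quantile and cover the model's spread. Precision falls with depth, the totals running from 17789044 to 43403413 counts. All 10 genes were named; from other lists, the 3 called genes with the largest change in a comparison, except some that are not reported here. The members, lists and rules were chosen with earlier results of these data known. Alternatives were RLE scaling, no filter, a mean of at least 1 CPM, DESeq2 1.42.0, other sets of samples, a cohort term, no minimum fold and a replicate block. The tests were checked on simulated counts.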

Additional observations from a re-analysis of the deposited data

Results flagged for a closer look

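In non-stroked NSG cortex, Cst7 was at 0.0283 CPM in replicate 3 and at 0 in the other 3 samples. The gap rule picked this value out of 40 gene and group combinations examined, and chance alone gives about 1 in 20. The value is 1 count, and with the other samples tied at 0 any count would have been picked, so it does not show that the sample differed.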

How the results depend on the processing

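In the stroke comparisons, which guided the choice of genes and so show nothing about them, 9 of 10 genes were called (10 with no minimum fold, in all but the acute group) under every alternative run except for the acute group, where the count fell from 9 to 0 with a cohort term and to 0 with only the groups compared, and ran from 0 to 9 over samples left out. For delayed against acute tacrolimus the count of 7 became 2 with a cohort term, 0 with only the groups compared and 0 within TF, and ran from 0 to 9 over samples left out; RLE scaling, both other filters and DESeq2 gave 7 and no minimum fold 8, DESeq2 exchanging Clec7a (adjusted p = 0.053) for Gpnmb (adjusted p = 0.0373). Acute against no tacrolimus ran from 0 to 9. NSG against WT stroke and NSG against Rag2-/- stroke ran from 0 to 1 (Cst7). Non-stroked NSG against WT gave 1 with DESeq2 (Cst7) and 1 with only the groups compared (Lgals3), against 0. Delayed against no tacrolimus turned negative for Cst7 (-0.301 with a cohort term, -0.0908 within TF, -0.0573 to 0.232 over samples left out) and for Spp1 (-0.0944 with a cohort term). With a cohort term Clec7a in NSG against WT stroke was 0.307 and the Trem2 response of Rag2-/- against WT 0.0563, both of the other sign. Where no value shows the cause, it was not tested. A replicate block over the shared numbers of non-stroked samples called 0 of the 10 genes in each of 3 strain comparisons, and 7, 318 and 369 of all genes against 1, 411 and 408 without it; in the NSG and Rag2-/- samples used, leaving the block out called 1 (Lgals3). Same-numbered samples correlated at -0.31 to 0.169 after each group was centred. With 2 or 3 shared numbers per comparison, this cannot show whether the numbers pair the samples. Depth limits Cd300lb, Lilr4b, Clec7a and Cst7 without a stroke, which had 0 to 12 counts a sample.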

Other observations

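The balance of the receptor Trem2 and its adaptor Tyrobp tended to differ by cohort, with ranges that overlapped slightly. The ratio of Tyrobp to Trem2 counts was 0.494 to 0.768 in the 11 non-stroked samples, 0.661 to 0.882 in the 9 stroked Imm2 samples and 0.868 to 1.19 in the 9 stroked TF samples. Among the non-stroked samples, NSG (0.494 to 0.522) lay below every WT (0.618 to 0.752) and every Rag2-/- sample (0.577 to 0.768). Stroked WT without drug is in both cohorts, and there the ratio was 0.738 and 0.725 in Imm2 and 1.12 and 1.01 in TF samples. Acute samples were at 0.768 in Imm2 and 0.868 and 1.06 in TF. The ratio is given as values only and its cause was not tested. The TF samples hold no non-stroked mice, and the other groups differ between the cohorts in strain and drug.

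Some homeostatic microglia genes were higher after stroke. Of the 10, 3 were called higher in stroked than in non-stroked WT cortex (edgeR), among them Tmem119 (log2 fold change 1.09) and Csf1r, the receptor for colony-stimulating factor 1 (1.05), and 0 were called lower. Of all genes, 6.76% were called higher in that comparison. In delayed mice 6 of the 10 were called higher (11.5% of all genes), in Rag2-/- mice 1 (4.22%), in NSG mice 2 (5.01%) and in acute mice 0 (2.28%). The Rag2-/-, NSG and acute counts each rest on 3 stroked samples.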
